A study of Mus musculus with 4 samples.

Results

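The genes described here encode PD-L1 and 9 other ligands and receptors through which a macrophage stimulates or restrains T cells. They were selected by gene symbol and are 10 of the 48795 genes in the count table. *Cd274*, *Pdcd1lg2*, *Cd276*, *Vsir*, *Lgals9* and *Havcr2* form the inhibitory group, and *Cd80*, *Cd86*, *Cd40* and *Icosl* the stimulatory group. All 10 passed the filter on low counts. Expression was measured by RNA sequencing of bone marrow-derived macrophages of C57BL/6 mice, primary cells grown from marrow for 5 days with 50 ng/ml M-CSF and 10% fetal bovine serum. The control group was 2 libraries of cells transfected with 50 nM control siRNA, and the IRF2 siRNA group was 2 libraries of cells transfected with 50 nM of siRNAs specific for IRF2, all collected at 48 h. The cells were otherwise of the same strain and culture, and no interferon or microbial stimulus is named for either group. The labels name neither the siRNA sequences nor how many siRNAs were used. Whether the replicates were independent cultures or mice is not stated, and the p-values accordingly reflect the scatter of the 4 libraries alone, part or all of which could be technical.

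A T cell that has recognised antigen also reads ligands of the B7 family on the presenting cell. CD80 and CD86 engage CD28 to drive activation and CTLA-4 to restrain it, whereas PD-L1 and PD-L2 engage PD-1, which dampens signalling of the T-cell receptor. CD40 works in the other direction: CD40 ligand on the T cell signals through it into the macrophage. PD-L1 is inducible by interferons through STAT and IRF factors, and IRF2 is a member of that family known mainly as a repressor that competes with IRF1 for the same DNA elements.

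Counts in genes ranged from 26378584 to 32273565 per library, and 13495 genes were tested. *Irf2*, the targeted gene, had 4758 and 4934 reads in controls and 1482 and 1529 reads after IRF2 siRNA, 2.81-fold lower (edgeR adjusted p = 0.00477). Macrophage markers were abundant in all libraries, with a summed level over 10 genes of 24564 to 27230 CPM, counts scaled to library size. T-cell antigen receptor parts were at or near 0: *Cd3d*, *Cd3e*, *Cd3g*, *Trac*, *Trbc1* and *Trbc2* had at most 2 reads in any library, and the summed level of 14 T-cell markers, 31.8 and 26.4 CPM in controls and 21.4 and 22.6 CPM after IRF2 siRNA, was almost all *Cd4*. The gap between replicates was wider in controls, with a median absolute log2 difference per gene of 0.22 against 0.13 after IRF2 siRNA.

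The promoters of 3 members are shown because their letters and their values can be set side by side: *Cd274*, the only member called, *Pdcd1lg2*, its neighbour on the chromosome, and *Lgals9*, the only member whose window held the longer interferon-type motif. Each line gives bases from the 250 before the RefSeq start in GRCm38.p6, on the strand of the gene. Bases that GENCODE M21 marks as untranslated are left out. Part of the *Cd274* stretch lies within *Plgrkt*, a minus-strand gene whose annotated start is at 29367390. The stretches are chr19:29367309-29367437 on the plus strand, chr19:29410669-29410918 on the plus strand and chr11:78984947-78985174 on the minus strand. Capitals mark matches to an ISRE-type motif of interferon-responsive promoters, here GAAA and GAAA with 2 bases of any kind between them, or to AANNGAAA, the shorter core that IRF factors recognise, on either strand.
Cd274: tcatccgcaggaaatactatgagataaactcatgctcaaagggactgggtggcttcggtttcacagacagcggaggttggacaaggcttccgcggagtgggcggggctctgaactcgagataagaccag
Pdcd1lg2: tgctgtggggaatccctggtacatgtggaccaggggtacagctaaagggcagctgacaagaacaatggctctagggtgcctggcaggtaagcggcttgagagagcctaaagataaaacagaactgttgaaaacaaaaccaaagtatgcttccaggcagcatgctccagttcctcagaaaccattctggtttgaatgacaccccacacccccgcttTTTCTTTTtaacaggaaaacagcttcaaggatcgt
Lgals9: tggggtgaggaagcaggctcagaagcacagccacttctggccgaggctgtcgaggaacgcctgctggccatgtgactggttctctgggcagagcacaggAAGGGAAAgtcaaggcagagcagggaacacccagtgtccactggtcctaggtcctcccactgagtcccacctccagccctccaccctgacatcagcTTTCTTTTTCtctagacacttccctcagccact

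Motifs were searched on both strands of 300-base windows, from 250 bases before to 50 bases after the start, which RefSeq gave for 8 of the 10 members, *Cd86* and *Cd40* being without one. The ISRE-type motif was in 1 of the 8, *Lgals9*, with a match starting 55 bases before the start and another at base 16 after it, and in 3.44% of all 32851 promoter windows. The core AANNGAAA, added after the windows had been read and contained in every ISRE-type match, was in 4 of the 8 and in 23.9% of all windows. In *Cd274* it was matched 175 bases before the start as TTTCGTTT, on the other strand, outside the 129 bases shown and inside the first exon of *Plgrkt*, a gene that runs away from *Cd274* on the minus strand. In *Pdcd1lg2* and *Cd80* it was matched 35 bases before and at base 31 after the start. The RefSeq start of *Cd80* lies just after base 38458932 of chromosome 16, inside the GENCODE M21 span of the gene, which begins at 38455561. The STAT-type motif TTCNNNGAA was in none of the 8 and in 8.30% of all windows. The AP-1-type motif TGANTCA was in *Havcr2* and *Cd80* (7.81% of all windows), and the NF-kB motif was in *Pdcd1lg2* and *Icosl* (8.46%). These matches describe letters in short windows and are neither binding sites nor their absence.

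*Cd274*, which encodes PD-L1, was higher after IRF2 siRNA and was the only member of the 10 past the threshold of an adjusted p under 0.05, which 1.79% of all genes tested passed. The gene lies on chromosome 19 at 29367455 to 29388095 of mm10, plus strand. Controls had 2042 and 2592 of its reads, and the IRF2 siRNA libraries 4669 and 5421. In CPM, scaled by the trimmed mean of M-values (TMM), these were 70.3 and 79.7 against 176.3 and 198.9. Both IRF2 siRNA libraries therefore lay above both controls, and in each group replicate 2 was the higher library. The group means were 75.0 ± 6.59 and 187.6 ± 16.0 CPM (SD, n = 2 each), a 2.5-fold difference. On the log2 scale this was 1.32 (standard error 0.13, 95% interval 1.02 to 1.63), with an adjusted p = 0.0079 in edgeR's quasi-likelihood test. By size it was the 46th largest of 13495 changes when ordered from the largest rise. In these bulk samples more cells with the transcript and more transcript per cell cannot be told apart.

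The call of *Cd274* was kept in all 12 alternative fits, at log2 values of 1.24 to 1.42. The largest adjusted p was 0.0415, in edgeR with no filter on low counts. Exons of *Cd274* share 511 bases with AC119228.1, an antisense gene of GENCODE M21 that has no row in the count table. No source says whether the counting used strand, and without strand the reads of both genes cannot be told apart.

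**Figure D1:**
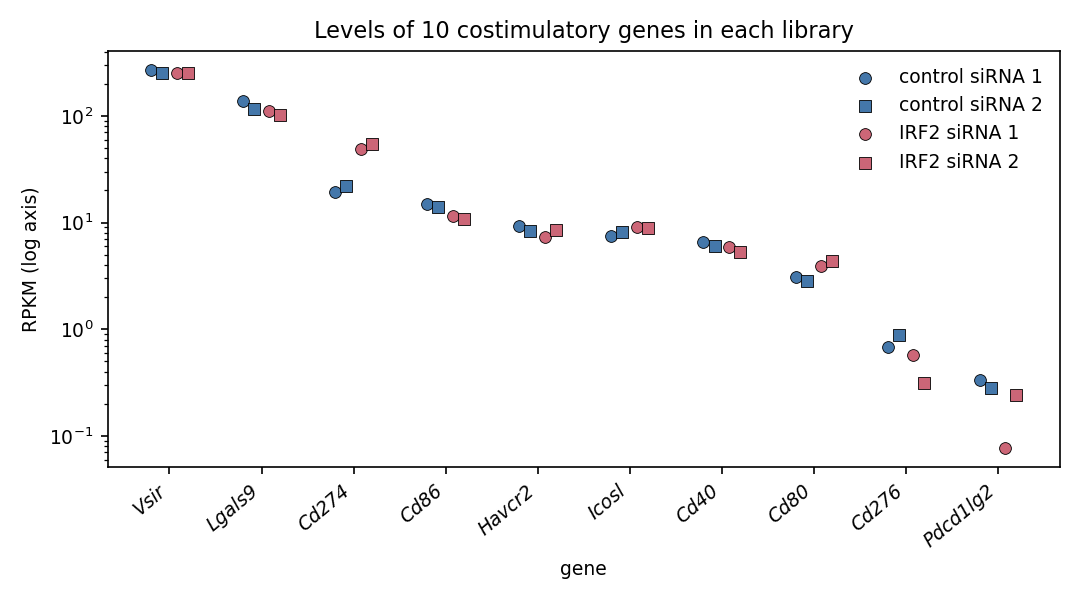
Level of the 10 genes in each library as RPKM, the CPM divided by the merged exon length in kb (log axis), ordered by the control mean; blue points are control siRNA, red points IRF2 siRNA, circles replicate 1 and squares replicate 2. Levels span from about 0.308 RPKM for Pdcd1lg2 to 262 RPKM for Vsir in controls, and Cd274 goes from 20.7 to 51.8 RPKM.

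*Pdcd1lg2*, which encodes PD-L2, the other ligand of PD-1, was barely expressed. It starts 43 kb downstream of *Cd274* on the same strand, on chromosome 19 at 29410919 to 29471161. It had 19 and 18 reads in controls and 4 and 13 reads after IRF2 siRNA, or 0.654 and 0.553 against 0.151 and 0.477 CPM. The IRF2 siRNA values were the lower ones, but they were far apart from each other. The log2 fold change was −0.92 (95% interval −2.23 to 0.40, edgeR adjusted p = 0.689), so a difference was not detectable at this depth. The value ran from −1.96 without IRF2 siRNA replicate 2 to −0.32 without IRF2 siRNA replicate 1.

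*Cd276*, which encodes B7-H3, a B7 family protein with reported inhibitory and stimulatory activities, was also rare. It lies on chromosome 9 at 58524298 to 58555437, minus strand. It had 73 and 106 reads in controls and 55 and 31 after IRF2 siRNA, or 2.51 and 3.26 against 2.08 and 1.14 CPM. The groups did not overlap, and the replicates within each differed, with the higher control in replicate 2 and the higher IRF2 siRNA library in replicate 1. Its log2 fold change was −0.85 (95% interval −1.61 to −0.09 before adjustment, edgeR adjusted p = 0.377). The value was −1.02 without control replicate 1, −0.47 without IRF2 siRNA replicate 2 and −1.34 without IRF2 siRNA replicate 1. Its exons share 416 bases with Gm10657 on the opposite strand, which had 2 reads over the 4 libraries.

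*Vsir* and *Lgals9* were the most abundant of the 10 genes. *Vsir* encodes VISTA, a B7-related inhibitory protein of myeloid cells, and lies on chromosome 10 at 60346851 to 60372684, plus strand. It had 1358 and 1270 CPM in controls and 1262 and 1253 CPM after IRF2 siRNA. Its 4 values lay close together, with the lower control only slightly above the higher IRF2 siRNA library. Its fitted change on the log2 scale was −0.06 (95% interval −0.34 to 0.21, edgeR adjusted p = 0.956). *Lgals9* encodes galectin-9, a secreted lectin that binds TIM-3, and lies on chromosome 11 at 78962974 to 78984946, minus strand. It had 296.7 and 248.3 CPM in controls and 236.6 and 216.4 CPM after IRF2 siRNA. Both IRF2 siRNA libraries were below both controls, by less than the gap between the controls for the nearest pair. The change came to a log2 value of −0.27 (95% interval −0.58 to 0.05, edgeR adjusted p = 0.56). Leaving out control replicate 2 gave −0.39, and leaving out control replicate 1 gave −0.13.

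*Havcr2* encodes TIM-3, an inhibitory receptor that is found on myeloid cells as well as T cells and for which galectin-9 is a described ligand. It lies on chromosome 11 at 46454935 to 46481255, plus strand. Levels were 25.2 and 22.6 CPM in controls and 19.9 and 23.4 CPM after IRF2 siRNA. It was the only member of the 10 whose groups overlapped. The fitted log2 value was −0.14 (95% interval −0.48 to 0.20, edgeR adjusted p = 0.882).

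Among the stimulatory members none passed the test. *Cd80*, B7-1, on chromosome 16 at 38455561 to 38496335, plus strand, had 334 and 338 reads in controls and 382 and 438 after IRF2 siRNA. In CPM these were 11.5 and 10.4 against 14.4 and 16.1, so both IRF2 siRNA libraries were above both controls. The fitted log2 value was 0.48 (standard error 0.15, 95% interval 0.13 to 0.82 before adjustment, edgeR adjusted p = 0.231). Without control replicate 1 the value was 0.56. *Cd86*, B7-2, which shares the receptors CD28 and CTLA-4 with CD80, lies on the same chromosome at 36603869 to 36666081, minus strand. It had 1570 and 1665 reads in controls and 1110 and 1082 after IRF2 siRNA, or 54.1 and 51.2 against 41.9 and 39.7 CPM. Both IRF2 siRNA libraries were below both controls, which is the opposite order to *Cd80*. The fitted log2 value was −0.37 (standard error 0.12, 95% interval −0.64 to −0.09 before adjustment, edgeR adjusted p = 0.259). Without control replicate 2 the value of *Cd86* was −0.41.

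*Cd40*, the receptor for CD40 ligand, lies on chromosome 2 at 165055627 to 165072948, plus strand. It had 22.4 and 20.6 CPM in controls and 20.2 and 17.9 CPM after IRF2 siRNA. The groups were separated by only a small gap between control replicate 2 and IRF2 siRNA replicate 1. The log2 fold change was −0.17 (95% interval −0.50 to 0.15, edgeR adjusted p = 0.813). *Icosl*, the ligand of the T-cell costimulator ICOS, lies on chromosome 10 at 78069302 to 78083913, plus strand. It had 34.7 and 37.5 CPM in controls and 41.7 and 41.2 CPM after IRF2 siRNA, with both IRF2 siRNA libraries the higher. Its fitted change on the log2 scale was 0.20 (95% interval −0.08 to 0.48, edgeR adjusted p = 0.674).

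**Figure D2:**
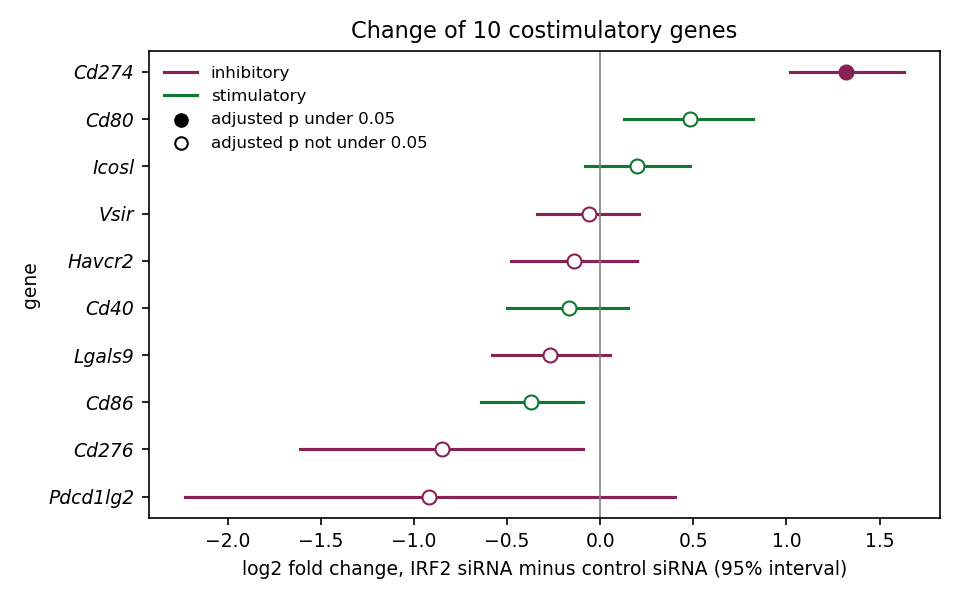
Log2 fold change of each gene (x axis, IRF2 siRNA minus control siRNA) with its 95% interval before adjustment for multiple tests; purple marks inhibitory and green stimulatory members, and filled points have an edgeR adjusted p under 0.05. Only Cd274, at 1.32, is filled, and the widest interval, from −2.23 to 0.40, belongs to Pdcd1lg2.

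Counted together, 1 of 6 inhibitory members rose and none fell, and 0 of 4 stimulatory members passed in either direction. Over all genes tested, 1.79% passed in edgeR's quasi-likelihood test, 0.511% higher and 1.27% lower. At an unadjusted p under 0.05 there were 2 inhibitory and 2 stimulatory members (*Cd274*, *Cd276*, *Cd80* and *Cd86*) and 1476 of all genes, and DESeq2 and limma-voom each called *Cd274* and no stimulatory member. The median log2 fold change was −0.20 for the inhibitory and 0.01 for the stimulatory group, against −0.0015 for all genes tested. In 9 of the 10 members both IRF2 siRNA libraries were on 1 side of both controls, 3 above and 6 below, against 38.4% of all genes tested, 19.0% above and 19.4% below. Without control replicate 1, *Cd276* and *Cd80* were called beside *Cd274*, and without control replicate 2, *Lgals9* and *Cd86* were, in fits that called 1424 and 1770 genes in all instead of 241.

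**Figure D3:**
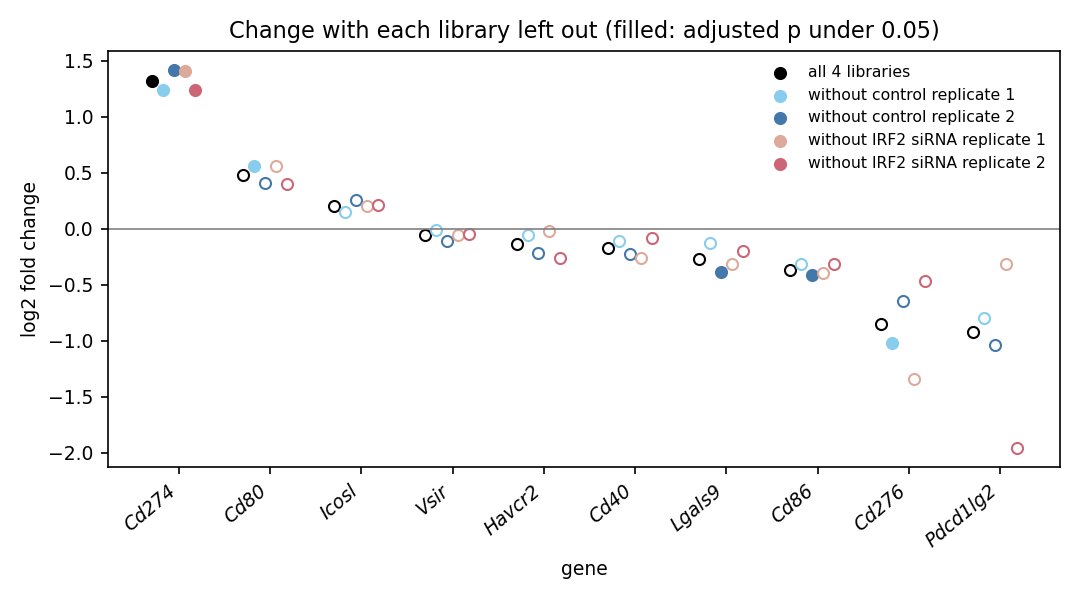
Log2 fold change (y axis) of each gene with all 4 libraries and with each library left out in turn; filled points have an edgeR adjusted p under 0.05. Cd274 is filled throughout, between 1.24 and 1.42, while Cd80, Cd86, Cd276 and Lgals9 are filled in some fits only. With a library left out, the test takes its scatter from the complete group alone.

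Levels can be compared between genes only per length, here as RPKM, the CPM divided by the length of the merged exons in kb. With control siRNA the order was *Vsir* at 262 ± 12.3, *Lgals9* at 128 ± 16.0, *Cd274* at 20.7 ± 1.82, *Cd86* at 14.4 ± 0.561, *Havcr2* at 8.78 ± 0.665, *Icosl* at 7.81 ± 0.42, *Cd40* at 6.31 ± 0.38, *Cd80* at 2.96 ± 0.213, *Cd276* at 0.789 ± 0.144 and *Pdcd1lg2* at 0.308 ± 0.0365 RPKM (SD, n = 2 each). The gap between *Havcr2* and *Icosl* was smaller than the sum of their SDs, and after IRF2 siRNA *Icosl*, at 8.97 ± 0.0725 RPKM, came before *Havcr2*, at 7.96 ± 0.894 RPKM. *Cd276* and *Pdcd1lg2* were likewise closer than the sum of their SDs after IRF2 siRNA, at 0.439 ± 0.182 and 0.16 ± 0.118 RPKM. *Cd274* kept its place behind *Lgals9*, and after IRF2 siRNA reached 51.8 ± 4.42 RPKM beside 106 ± 6.69 RPKM for *Lgals9*. With the longest transcript as the length, *Cd274* and *Cd86* were level in controls at 20.7 RPKM each, and *Icosl* came before *Havcr2* in both groups. In controls *Vsir* was above 99.0% of all genes tested and *Cd274* above 83.2%, while *Cd80* stood at 40.2% and *Pdcd1lg2* at 9.76%.

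Within the summed RPKM of the 10 genes, *Cd274* made up 4.12% and 5.09% in controls and 10.8% and 12.4% after IRF2 siRNA. *Vsir* made up 57.5% and 58.7% against 56.0% and 56.2%, and remained the largest share in every library. The summed inhibitory level was 439 and 401 RPKM in controls and 419 and 415 RPKM after IRF2 siRNA, so the groups overlapped although *Cd274* had risen. The summed stimulatory level was 32 and 30.9 against 30.3 and 29.4 RPKM.

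Ratios within a library remove its scaling. The RPKM of *Cd274* was 1.31 and 1.57 times that of *Cd86* in controls and 4.25 and 5.06 times after IRF2 siRNA. Relative to *Cd80* it was 6.25 and 7.84 against 12.5 and 12.7 times, and relative to *Pdcd1lg2* 58.2 and 78.0 against 632 and 226 times, the last resting on the few reads of *Pdcd1lg2*. The ratio of *Cd80* to *Cd86*, which compete for the same receptors, was 0.21 and 0.201 in controls and 0.34 and 0.40 after IRF2 siRNA. In each of these 4 ratios both IRF2 siRNA libraries were above both controls. No test was made, since the smallest two-sided p of an exact permutation test of 2 against 2 is 0.333. With the longest transcript as the length the *Cd274* to *Cd86* ratio had means of 1 and 3.23 in place of 1.44 and 4.66. A change of length multiplies a ratio by the same factor in every library, so it cannot alter the order of the groups.

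**Figure D4:**
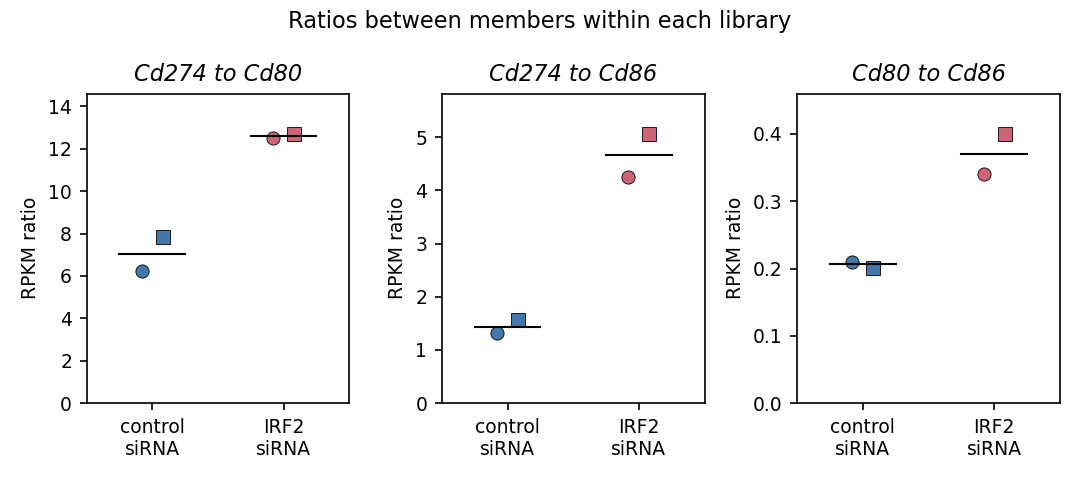
RPKM ratios of Cd274 to Cd80, Cd274 to Cd86 and Cd80 to Cd86 (y axes, each from 0) in each library; blue is control siRNA, red IRF2 siRNA, circles replicate 1, squares replicate 2 and bars group means. The means are 7.05 and 12.6, 1.44 and 4.66, and 0.206 and 0.37.

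None of the tested genes around *Cd274* was called higher. Of 9 genes listed from that part of chromosome 19, *Pdcd1lg2* aside, 7 were expressed enough to test, none rose and 1 fell. Over all genes tested, only 0.511% rose and 1.27% fell. *Plgrkt*, a plasminogen receptor gene, starts 65 bases upstream of the annotated *Cd274* start and runs in the opposite direction. It had 2315 and 2324 reads in controls and 2237 and 2346 after IRF2 siRNA, and a log2 fold change of 0.17 (edgeR adjusted p = 0.738). *Jak2*, a kinase of the interferon-gamma receptor, starting 116 kb upstream, had 0.16 (edgeR adjusted p = 0.86). *Insl6*, a relaxin family gene that starts 42 kb upstream, had 206 and 191 reads in controls and 81 and 78 after IRF2 siRNA. It fell by 1.13 on the log2 scale (edgeR adjusted p = 0.0404), and it was not called without either IRF2 siRNA replicate, with no filter or in limma-voom. More genes of this list were called, all lower, in each fit without 1 control replicate. Those fits called many more genes over the whole table.

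**Figure D5:**
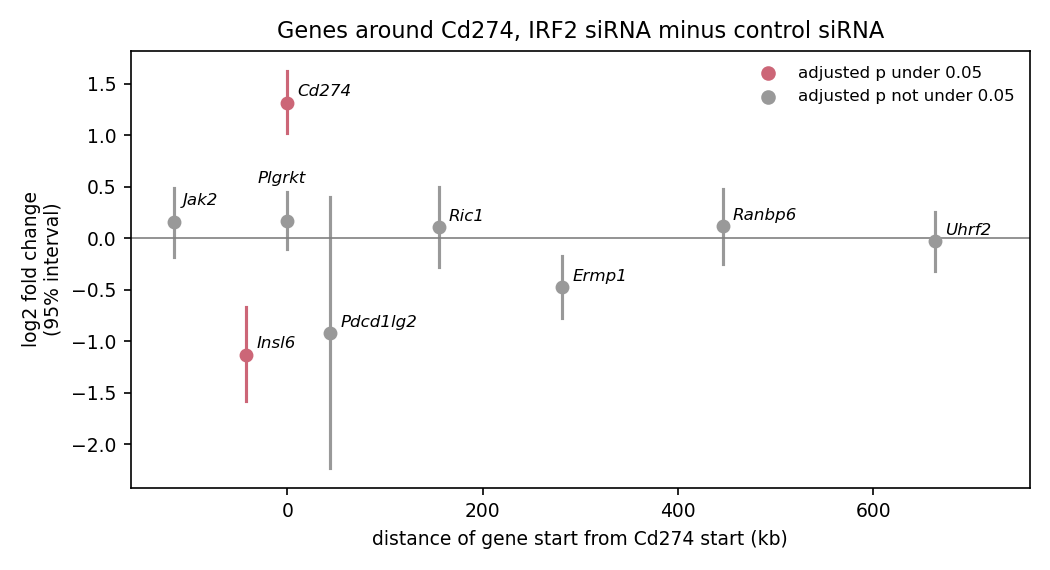
Log2 fold change (y axis, IRF2 siRNA minus control siRNA, with 95% intervals before adjustment) of tested genes against the distance of their start from the Cd274 start (x axis, kb); red points have an edgeR adjusted p under 0.05. Cd274 is at 1.32, Plgrkt at the same place on the x axis at 0.17, and Insl6, 42 kb away, at −1.13, and the other genes are grey.

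The genes most like *Cd274* over the 4 libraries were sought among 8678 genes with a mean log2 CPM of at least 3, by the root mean square difference of centred log2 CPM. The nearest 6 were *Slc28a2*, a nucleoside transporter, *Cmpk2*, an interferon-induced mitochondrial nucleotide kinase, *Ccrl2*, an atypical chemokine receptor, *Pgap1*, an enzyme of GPI anchors, *Hk3*, a hexokinase, and *Ifit3b*, an interferon-induced gene closely related to *Ifit3*, so that its reads may in part be uncertain. Their differences from *Cd274* ran from 0.05 for *Slc28a2* to 0.10 for *Ifit3b* on the log2 scale. *Slc28a2* had 37.2 and 40.5 CPM in controls and 99.3 and 107.9 CPM after IRF2 siRNA. The log2 fold changes of the 6 were between 1.21 and 1.42, which their choice for likeness fixes.

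Other ligands of the same kinds were counted from lists based on general knowledge. Of 12 further B7-related and butyrophilin genes, 5 had no read and 2 were tested, of which none was called by edgeR, DESeq2 or limma-voom and 1 had an unadjusted p under 0.05. These were *Skint3*, at a log2 fold change of −0.74 (edgeR adjusted p = 0.354), and *Btnl2*, at −0.22 (0.923). An unadjusted p under 0.05 was found for 1476 of all 13495 genes tested. *Vtcn1*, which encodes the inhibitory ligand B7-H4, had no read in any library.

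Of 10 costimulators of the TNF family and their receptors, 7 were tested, 2 fell and none rose, with a median log2 fold change of −0.33. Of all genes tested, 1.27% fell. *Tnfsf13b*, which encodes the B-cell survival factor BAFF, had 209 and 170 reads in controls and 31 and 29 after IRF2 siRNA, a log2 fold change of −2.47 (edgeR adjusted p = 0.00955). *Tnfsf8*, the ligand of CD30, had 137 and 190 against 30 and 40 reads, a log2 fold change of −2.02 (edgeR adjusted p = 0.0139). In both genes every IRF2 siRNA library was far below every control. In DESeq2 and in each of the 4 fits without 1 library, 1 of the 7 rose. Without control replicate 1 a further member fell, in a fit that called many more genes over the whole table. With no filter on low counts 1 of the 2 falls was kept.

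Of 26 adhesion molecules and other partners of T cells, 20 were tested, 1 fell and none rose, and the median log2 fold change was −0.04. Of all genes tested, 1.27% fell and 0.511% rose. The member that fell was *Nectin4*, an adhesion molecule that binds TIGIT, whose control level of 60.3 ± 1.55 CPM compared with 30.0 ± 1.21 CPM after IRF2 siRNA (SD, n = 2 per group, edgeR adjusted p = 0.0127). More of the list were called, in both directions, in each fit without 1 control replicate. Those fits called many more genes over the whole table. With DESeq2 size factors, library size alone or the DESeq2 test 2 were called, 1 higher and 1 lower.

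Receptors by which T cells read these ligands were mostly rare. Of 15 listed, 7 were tested and none was called by edgeR, DESeq2 or limma-voom or had an unadjusted p under 0.05. Among all 13495 genes tested, 1476 had such a p. *Lag3*, an inhibitory receptor, had a log2 fold change of −1.10 (edgeR adjusted p = 0.699), and *Tnfrsf18*, a stimulatory one, 0.78 (0.736). *Pdcd1*, which encodes PD-1, had 1 read in the 4 libraries together. A rise was called without control replicate 2, in a fit that called many more genes over the whole table.

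Regulators of PD-L1 were called only through the target itself. Of 35 genes listed, 34 were tested, and *Irf2* was the only gene called, with 6 at an unadjusted p under 0.05 and a median log2 fold change of −0.02. The 6 include *Irf2*, the gene the siRNA targets. Over all genes, 1476 of 13495 had an unadjusted p under 0.05, and 1.79% were called. Called members numbered 2 in DESeq2. More were called in each fit without 1 control replicate, and those fits called many more genes over the whole table. The 15 genes of CD40 signalling had a median log2 fold change of 0.03, and none was called by edgeR, DESeq2 or limma-voom, with 2 at an unadjusted p under 0.05. Of the TNF receptor adaptors, *Traf5* had a log2 fold change of −0.54 (edgeR adjusted p = 0.143) and *Traf1* −0.44 (0.214). Some of these 15 were called in each fit without 1 control replicate, and those fits called many more genes over the whole table.

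Dendritic cells also carry PD-L1, CD80, CD86 and CD40, so their markers were followed beside the members. The summed level of 11 dendritic markers was 25.5 and 25.4 CPM in controls and 17.4 and 16.8 CPM after IRF2 siRNA. None of the list was called in the main edgeR fit. In DESeq2, and in edgeR with a filter of 1 CPM in at least 2 libraries, 1 was lower. Most of the sum was *Itgax*, the integrin CD11c, with 568 and 642 reads in controls and 326 and 319 after IRF2 siRNA (edgeR adjusted p = 0.0548). *Flt3* had at most 1 read in a library and *Ccr7* at most 3. *Fscn1*, a marker of mature dendritic cells, went the other way, with 6 and 20 reads in controls and 21 and 29 after IRF2 siRNA (log2 fold change 1.14, edgeR adjusted p = 0.494). *Zbtb46*, with at most 16 reads in a library, was also higher in both IRF2 siRNA libraries. Of the 7 tested markers of this list, 5 had a negative log2 fold change and 2 a positive one. *Batf3*, with 101 and 75 reads in controls and 55 and 49 after IRF2 siRNA, was lower in both IRF2 siRNA libraries. So was *Xcr1*, with 30 and 33 reads in controls and 14 and 27 after IRF2 siRNA. The part of these markers in the results was not tested. Granulocyte markers summed to 251.7 to 296.5 CPM and B-cell markers to 226.5 to 307 CPM over the libraries, mostly from *Csf3r* and *Ighm*, while *Pax5* had no read and *Ly6g* at most 1. Fibroblast markers summed to 8.37 to 12.4 CPM. No marker of these lists or of the macrophage list was called in the main edgeR fit. DESeq2 called 1 macrophage marker, which was lower. Markers of the dendritic, macrophage, B-cell and T-cell lists were called in fits without 1 control library. The log2 fold changes of those with the smallest p were −0.51 for *Cd14* and −0.19 for *Spi1* among macrophage markers, −0.35 for *Cd22* and 0.34 for *Ighm* among B-cell markers, 0.42 for *S100a9* and 0.17 for *Csf3r* among granulocyte markers, and 0.34 for *Col1a1* and −0.58 for *Col3a1* among fibroblast markers. *Cd4* had −0.40.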

How the data were processed

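The authors deposited raw read counts per gene in a single table whose 4 columns are the libraries; all values are whole and the column totals differ. Per the submitters' processing notes, the tools were bcl2fastq 2.18.0.12, STAR 2.5.2b and HTSeq 0.6.0 with mm10, and DESeq2 without a version; no source used here gives the annotation release or strand setting. Besides 48795 genes the table has 5 rows that name no gene, left out of library sizes and tests: 5.07% to 6.85% of reads lay in no gene, 4.17% to 4.71% were ambiguous and 12.5% to 15.0% aligned more than once. Reads that align more than once or were ambiguous between counted genes are thus not in the values.

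Libraries were grouped by siRNA. The filter was filterByExpr (minimum count 10, total 15) of edgeR 4.0.16 in R 4.3.3. Counts were scaled by TMM and tested with glmQLFit and glmQLFTest on the siRNA group, with Benjamini-Hochberg adjustment over 13495 genes and a threshold of 0.05. The fit was tested on simulated data. Standard errors are the absolute log2 fold change over the square root of F, and 95% intervals use the test's degrees of freedom without adjustment. Lengths, coordinates and symbols are from GENCODE M21 on GRCm38 and promoters from RefSeq on GRCm38.p6, printed without bases that GENCODE M21 marks as untranslated. Replicates differed by more than sampling noise, with a chi-square of 51.0 and 9.92 per degree of freedom.

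Members and lists were chosen with earlier results of these data known. All members are named; of each list, up to 4 called genes with the smallest p or, with none called, 2. *Jak2*, *Plgrkt*, *Zbtb46*, *Batf3*, *Xcr1*, *Vtcn1*, *Pdcd1* and the genes of the closing section were chosen after their values were seen. So were markers quoted at or near 0. Alternatives used DESeq2 1.42.0 and limma-voom (limma 3.58.1), other scaling and filters, a replicate block, a threshold of 0.01, and each library left out.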

Additional observations from a re-analysis of the deposited data

How the results depend on the processing

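Among the 10 genes no direction reversed in any alternative, and *Cd274* was the only one called in all 12. The direction of *Pdcd1lg2* could be followed in 11, since it does not pass a filter of 1 CPM in at least 2 libraries. The number of genes called was 241, and became 72 with no filter on low counts, 427 with DESeq2, 1521 with the replicate block and 50 at an adjusted p under 0.01; it ran from 237 to 1770 over the fits that leave out 1 library. Over those fits *Cd276* ran from −1.34 to −0.47, *Lgals9* from −0.39 to −0.13, *Cd80* from 0.40 to 0.56 and *Cd86* from −0.41 to −0.32. The cause was not tested. A group left with 1 library is assumed to vary like the other, so the scatter in such a fit comes from that other group alone. The median absolute log2 difference between replicates was 0.22 in controls and 0.13 after IRF2 siRNA.

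Nothing in the labels pairs replicate 1 or 2 across groups, so the block is only an alternative. The deviations of same-numbered libraries from their group means had a correlation of 0.485 across genes. With the replicate block 3 further genes passed, *Cd276* at −0.86 (edgeR adjusted p = 0.0069), *Cd80* at 0.48 (0.00354) and *Cd86* at −0.37 (0.00522); the remaining ones kept their side of the threshold.

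Counts of called list members changed in 12 of 15 lists with the block, in 10 without control replicate 1, in 11 without control replicate 2, and in 2 without IRF2 siRNA replicate 1 and likewise without replicate 2. With the longest transcript as the length, 12 of 20 group levels and 5 of 8 ratios moved by more than 1 SD. Depth limits *Pdcd1lg2* most, with 4 to 19 reads per library.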

Other observations

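*Cd28*, the receptor of CD80 and CD86 that is best known from T cells, was abundant in these macrophage libraries, which held almost no reads of T-cell receptor parts. It had 2918 and 3086 reads in controls and 2363 and 2406 after IRF2 siRNA. Per length its level in controls, 15.9 ± 0.654 RPKM (SD, n = 2), was close to that of *Cd86*, 14.4 ± 0.561 RPKM, while *Cd3e* had at most 2 reads in a library. Its log2 fold change was −0.14 (95% interval −0.40 to 0.12, edgeR adjusted p = 0.816). *Icos*, the receptor of the *Icosl* product, had 23 to 33 reads per library.

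*Tnfrsf14*, which encodes HVEM, a ligand of the inhibitory receptor BTLA, had 529 and 1138 reads in controls and 1480 and 1946 after IRF2 siRNA. Its log2 fold change, 1.26, was near that of *Cd274*, but the controls lay far apart and the edgeR adjusted p was 0.111. *Sema4a*, a semaphorin that acts on T cells, had a mean of 57.3 ± 3.88 CPM in controls, which compared with 89.4 ± 1.17 CPM after IRF2 siRNA (SD, n = 2 per group, edgeR adjusted p = 0.0509).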
